A study of Mus musculus with 8 samples.

Results

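Heme and iron handling genes were compared between infarcts of vehicle-treated and HPβCD-treated aged mice. The group comprised 10 genes chosen by symbol: Hmox1 and Blvrb for heme breakdown, Fth1 and Ftl1 for iron storage, Slc40a1, Slc11a1, Slc48a1 and Tfrc for transport, and Trf and Cp for plasma iron proteins. All 10 were found among the 46078 gene identifiers that were counted, and all 10 were among the 14736 genes with enough counts to be tested. RNA sequencing was performed on infarcts from wild-type C57BL/6J mice, an inbred laboratory strain, aged 18 months. All were given a DH stroke, which joins occlusion of the distal middle cerebral artery with hypoxia. Treatment began 1 week after stroke and consisted of 3 subcutaneous injections per week over 6 weeks, either of sterile PBS (vehicle, n = 4) or of 4 g/kg 2-hydroxypropyl-β-cyclodextrin (HPβCD, n = 4), a sugar ring that takes up cholesterol. Infarcts were cut out by hand at 7 weeks after stroke, so the share of adjoining brain was not fixed, and no infarct or brain of an animal without stroke entered these comparisons.

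Heme freed from dying cells and from blood is opened by heme oxygenase to biliverdin, carbon monoxide and iron, and biliverdin reductase then makes bilirubin. The iron is either caged in ferritin, a shell built from heavy and light chains, or sent out of the cell by ferroportin. Macrophages that clear red cells run this route at a high rate, and in brain the oligodendrocytes are known as the cells richest in iron and transferrin. Iron-regulatory proteins bind a short hairpin called the iron-responsive element. In the 5′ UTR of a messenger RNA this binding holds back translation, and in the 3′ UTR of the transferrin receptor it keeps the messenger from being degraded.

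The hairpins are shown because they are the element that iron-regulatory proteins bind. Transcripts of the GENCODE M21 annotation (build GRCm38) were searched on the sense strand for an unpaired C, then 5 bases, the loop letters CAGTG with a closing base other than G, and 5 bases able to pair with the 5 before the loop, with G to T pairs allowed. The pattern stood in a UTR of 4 of the 10 genes, against 119 of 21840 protein-coding genes, or 0.545%. Each window runs 5′ to 3′ on the strand of the gene, with T for U, and the 6 bases of the loop are in capitals.
Fth1, 5′ UTR, chr19:9982733-9982759, plus strand: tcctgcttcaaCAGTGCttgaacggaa
Ftl1, 5′ UTR, chr7:45459780-45459806, minus strand: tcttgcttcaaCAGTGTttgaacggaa
Slc40a1, 5′ UTR, chr1:45925466-45925492, minus strand: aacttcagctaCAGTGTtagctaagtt
Tfrc, 3′ UTR, chr16:32631220-32631246, plus strand: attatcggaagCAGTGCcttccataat
Tfrc, 3′ UTR, chr16:32631599-32631625, plus strand: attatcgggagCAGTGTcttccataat
Tfrc, 3′ UTR, chr16:32631664-32631690, plus strand: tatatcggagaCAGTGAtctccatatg
Tfrc, 3′ UTR, chr16:32631711-32631737, plus strand: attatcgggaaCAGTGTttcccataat
Both ferritins and ferroportin held 1 hairpin each at the front of the messenger, whereas Tfrc held 4 at its end. A match is a description of these letters and was not tested as a binding site.

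Libraries held 16.6 M to 19.4 M gene counts, except for vehicle animal 2 with 32.9 M. Vehicle animals 1 and 3 stood apart from the other libraries. Their 8 neuronal markers summed to 1022 and 6048 CPM (counts scaled to the same total in every library), compared with 7.84 to 84.3 CPM in the other 6 libraries. The difference of each of the 10 genes is also given without these 2 animals. In bulk tissue, fewer cells of a type and less RNA per cell cannot be told apart.

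Of the 10 genes, 3 had higher expression in HPβCD-treated infarcts by the test. Blvrb, Ftl1 and Slc11a1 rose (edgeR quasi-likelihood F test, Benjamini-Hochberg adjusted p under 0.05 over all 14736 genes), where 1.17% of all tested genes rose, 0.774% fell and 1.95% changed in either direction. None of the 10 fell, and all 10 had a log2 fold change above 0, compared with 45.9% of all tested genes. In 6 genes every HPβCD-treated animal was higher than every vehicle-treated animal, which held for 8.77% of all tested genes. The median log2 fold change was 0.73 for the 10 genes and −0.05 for all tested genes. The 10 genes were chosen with earlier results of these data known, so these shares describe the list and do not test it.

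**Figure D1:**
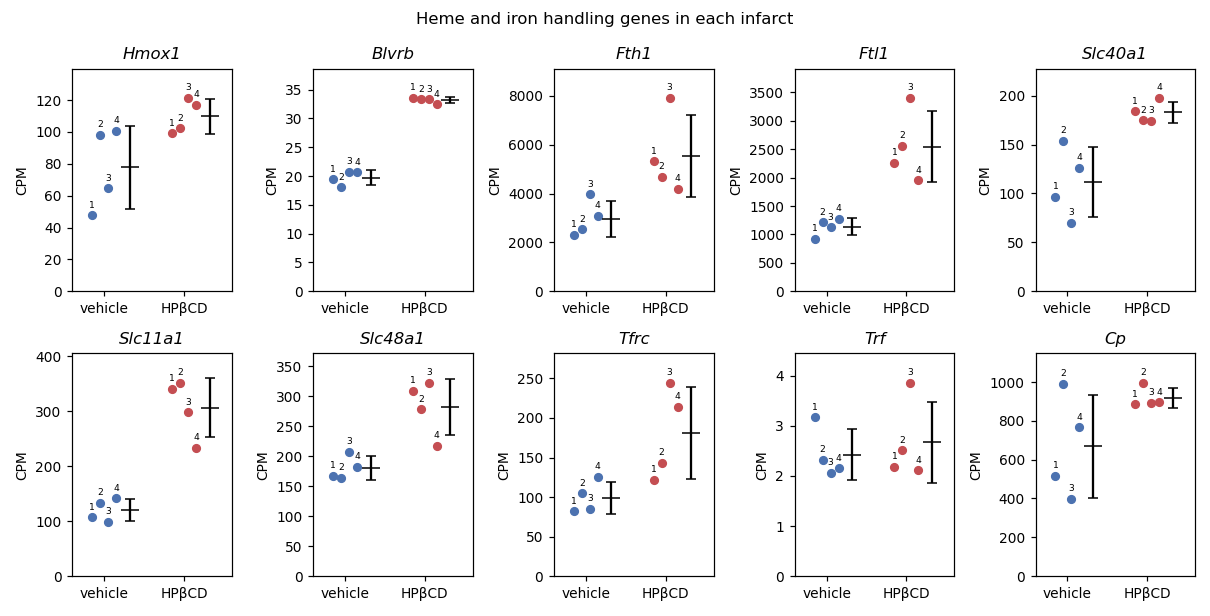
Expression of each gene in CPM (vertical axes, starting at 0) in the 4 vehicle-treated and 4 HPβCD-treated infarcts. Points are animals with their number, and bars are the mean and SD of each group. The groups do not overlap for Blvrb, Fth1, Ftl1, Slc40a1, Slc11a1 and Slc48a1.

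Heme breakdown was represented by Hmox1 and Blvrb. Hmox1 (ENSMUSG00000005413, chr8:75093621-75100589, plus strand) encodes the inducible heme oxygenase. Vehicle animals 1 to 4 had 47.7, 98.2, 64.6 and 100.7 CPM, and HPβCD animals 1 to 4 had 99.1, 102.2, 121.5 and 116.9 CPM. The groups overlapped because vehicle animal 4 exceeded HPβCD animal 1, and the lowest values belonged to vehicle animals 1 and 3. The log2 fold change was 0.50 (SE 0.24, 95% interval −0.04 to 1.04) and did not pass the test (adjusted p = 0.210). Without vehicle animals 1 and 3 it was 0.16. Blvrb (ENSMUSG00000040466, chr7:27447978-27466144, plus strand) encodes biliverdin reductase B, a flavin and biliverdin reductase. Vehicle-treated animals had 19.5, 18.1, 20.8 and 20.7 CPM, and HPβCD-treated animals had 33.6, 33.3, 33.3 and 32.4 CPM. The groups were clearly separated, with a narrow spread in both of them (19.7 ± 1.27 and 33.2 ± 0.519 CPM, SD, n = 4 each). Blvrb rose by 0.75 on the log2 scale (SE 0.12, 95% interval 0.49 to 1.01, adjusted p = 0.0427), and by 0.79 without vehicle animals 1 and 3 (adjusted p = 0.0424).

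Both ferritin chains were the most abundant messengers of the group. Fth1 (ENSMUSG00000024661, chr19:9980598-9985098, plus strand) encodes the heavy chain, which oxidizes iron as it enters the shell. It measured 2307, 2534, 3972 and 3090 CPM in vehicle-treated animals and 5326, 4701, 7933 and 4197 CPM in HPβCD-treated animals. HPβCD animal 3 was well above the other libraries, and the groups did not overlap. The log2 fold change of 0.90 (SE 0.27, 95% interval 0.28 to 1.52) missed the threshold (adjusted p = 0.0881) and passed in DESeq2 (adjusted p = 0.0104) and limma-voom (adjusted p = 0.0142). It was 0.99 without vehicle animals 1 and 3 (adjusted p = 0.107). Ftl1 (ENSMUSG00000050708, chr7:45457944-45459884, minus strand) encodes the light chain, which supports the growth of the iron core. It measured 928, 1214, 1125 and 1280 CPM in vehicle-treated animals, compared with 2259, 2563, 3409 and 1951 CPM in HPβCD-treated animals. Again HPβCD animal 3 was highest and HPβCD animal 4 lowest among the treated, and every treated animal exceeded every vehicle-treated animal. Ftl1 rose by 1.16 on the log2 scale (SE 0.22, 95% interval 0.67 to 1.66, adjusted p = 0.0483). Without vehicle animals 1 and 3 the value was 1.04 and the adjusted p 0.0674.

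Ferritin has many processed copies in the mouse genome, and reads that align to several places were not counted. Reads assigned to the copies Ftl1-ps1, Ftl2-ps and Ftl1-ps2 amounted to 0.264%, 0.0278% and 0.00819% of those of Ftl1. The Fth1 copy Fth-ps2 held 9 reads over all 8 libraries, and the Fthl17 genes held 0. Both ferritin levels are therefore uncertain to the extent that reads were shared with copies. In addition, 11.3% of the main Ftl1 transcript lies under the small RNA gene Gm22133 on the same strand, which held 0 reads.

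The heavy to light chain ratio per transcript length was compared inside each library. It was 2.59, 2.18, 3.68 and 2.52 in vehicle-treated animals and 2.46, 1.91, 2.43 and 2.24 in HPβCD-treated animals. The ranges overlapped, with vehicle animal 3 highest. The mean log2 ratio differed by −0.26 (HPβCD minus vehicle, exact two-sided permutation test over 70 assignments, p = 0.2, or 0.4 adjusted over 2 ratios), where the smallest p this design allows is 0.0286. Without vehicle animal 2 the difference was −0.36, with an exact permutation p of 0.0286, and it was −0.11 without vehicle animal 3 and −0.06 without vehicle animals 1 and 3. The level of the ratio depends on the length taken for Fth1, since the union of its exons includes retained introns, and with that length it ranged from 0.709 to 1.36.

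The largest log2 fold change of the 10 was that of Slc11a1. Slc11a1 (ENSMUSG00000026177, chr1:74375195-74386062, plus strand) encodes NRAMP1, which moves iron and other divalent metals out of the phagosome and lysosome of macrophages and neutrophils. Vehicle-treated animals had 107.0, 133.3, 98.8 and 141.7 CPM, and HPβCD-treated animals had 340.6, 352.0, 297.6 and 233.5 CPM. The highest vehicle value lay well below the lowest treated value. Slc11a1 rose by 1.35 on the log2 scale (SE 0.19, 95% interval 0.93 to 1.77, adjusted p = 0.0389), and by 1.17 without vehicle animals 1 and 3 (adjusted p = 0.0340).

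Slc48a1 (ENSMUSG00000081534, chr15:97778520-97792692, plus strand) encodes HRG1, the transporter that carries heme from the lysosome to the cytosol. It had 167.0, 164.1, 207.1 and 181.9 CPM in vehicle-treated animals and 309.2, 278.3, 323.0 and 217.8 CPM in HPβCD-treated animals. The groups did not overlap, although HPβCD animal 4 came close to vehicle animal 3. The log2 fold change was 0.65 (SE 0.16, 95% interval 0.28 to 1.01, adjusted p = 0.0658), and it passed in DESeq2 (adjusted p = 0.00423) and limma-voom (adjusted p = 0.00739). Leaving out vehicle animal 3 or HPβCD animal 4 brought the edgeR value to 0.72 and 0.76 with adjusted p-values of 0.0427 and 0.0436, and without vehicle animals 1 and 3 it was 0.72 (adjusted p = 0.0917).

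Slc40a1 (ENSMUSG00000025993, chr1:45908068-45926523, minus strand) encodes ferroportin, the only known cellular iron exporter. It had 96.3, 153.5, 70.2 and 126.5 CPM in vehicle-treated animals and 184.0, 174.9, 174.5 and 198.0 CPM in HPβCD-treated animals. Vehicle animals 1 and 3 were lowest, while the treated animals were tightly grouped above all of the vehicle-treated animals. The log2 fold change was 0.71 (SE 0.23, 95% interval 0.20 to 1.23, adjusted p = 0.0948), with adjusted p-values of 0.0437 in DESeq2 and 0.0253 in limma-voom. It was 0.40 without vehicle animals 1 and 3 (adjusted p = 0.160).

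Tfrc (ENSMUSG00000022797, chr16:32608920-32632794, plus strand) encodes the transferrin receptor, which takes up transferrin-bound iron. It had 82.1, 104.6, 84.8 and 125.3 CPM in vehicle-treated animals and 121.9, 143.7, 244.8 and 213.7 CPM in HPβCD-treated animals. HPβCD animals 3 and 4 were high, whereas HPβCD animal 1 lay within the vehicle range. The log2 fold change was 0.87 (SE 0.25, 95% interval 0.30 to 1.43, adjusted p = 0.0814), with an adjusted p of 0.0189 in DESeq2 and 0.141 in limma-voom. It was 0.67 without vehicle animals 1 and 3 (adjusted p = 0.219). The ratio of ferroportin to transferrin receptor per transcript length was 1.70, 2.13, 1.20 and 1.46 in vehicle-treated animals and 2.191, 1.77, 1.03 and 1.34 in HPβCD-treated animals. These ranges overlapped almost fully, and the mean log2 ratio differed by −0.06 (exact two-sided permutation test, p = 0.857, also after adjustment over 2 ratios). The sign of that difference turned without vehicle animal 2 (0.08) and without HPβCD animal 3 (0.12), and it was −0.21 without vehicle animals 1 and 3. Of the genes with a hairpin, the log2 fold changes of the 3 with it in the 5′ UTR (Fth1, Ftl1 and Slc40a1) were thus 0.90, 1.16 and 0.71, and that of Tfrc, with it in the 3′ UTR, was 0.87.

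The 2 plasma iron proteins had the smallest log2 fold changes of the 10. Cp (ENSMUSG00000003617, chr3:19957054-20009145, plus strand) encodes ceruloplasmin, a copper ferroxidase that readies exported iron for transferrin. It had 517.5, 990.0, 398.6 and 765.7 CPM in vehicle-treated animals and 886.0, 997.4, 891.3 and 895.4 CPM in HPβCD-treated animals. The vehicle-treated group spread widely, with animals 1 and 3 lowest, and vehicle animal 2 reached the level of the treated animals. The log2 fold change was 0.46 (SE 0.27, 95% interval −0.16 to 1.08, adjusted p = 0.308), and 0.08 without vehicle animals 1 and 3. Trf (ENSMUSG00000032554, chr9:103204001-103230444, minus strand) encodes transferrin, the plasma iron carrier that oligodendrocytes also make. It had 3.17, 2.32, 2.06 and 2.15 CPM in vehicle-treated animals and 2.18, 2.51, 3.86 and 2.11 CPM in HPβCD-treated animals, from 34 to 81 reads per library. The groups overlapped, and the log2 fold change was 0.14 (SE 0.28, 95% interval −0.49 to 0.76, adjusted p = 0.788), or −0.092 without HPβCD animal 3 and 0.27 without vehicle animals 1 and 3. Of the main Trf transcript, 82.0% lies under the annotated gene Gm20425 on the same strand, which held 0 reads in all 8 libraries, and by default the counting tool assigns reads shared by overlapping genes to neither. The counted Trf level may thus come only from the remaining 463 bases and is not read as the full expression of the gene.

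**Figure D2:**
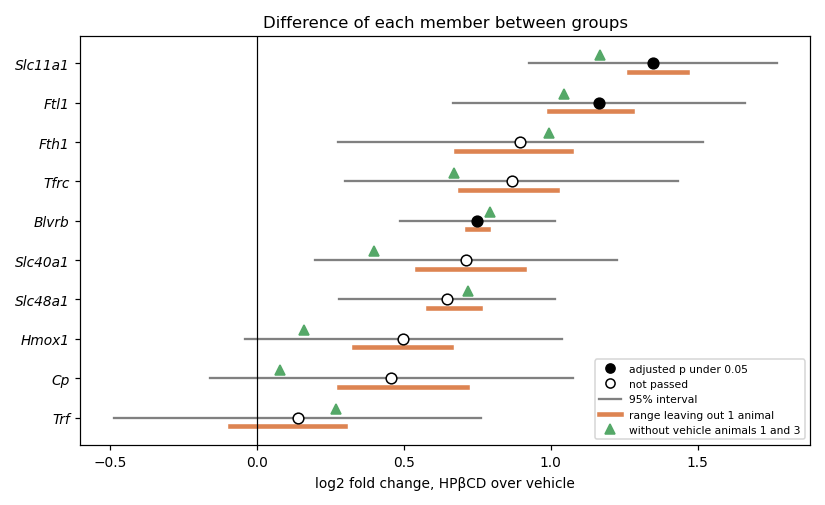
Log2 fold change of each gene, HPβCD over vehicle (horizontal axis), with its 95% interval (grey), the range when each animal is left out (orange) and the value without vehicle animals 1 and 3 (green triangles). Filled points passed the test in all 8 libraries. Slc11a1 lies highest at 1.35, and the intervals of Hmox1, Cp and Trf include 0.

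The spread between animals differed among the genes. In vehicle-treated animals the coefficient of variation was 33.3% for Hmox1, 32.4% for Slc40a1 and 39.5% for Cp, and in HPβCD-treated animals it was 9.98%, 6.03% and 5.82%. In each of these 3 genes vehicle animals 1 and 3 were below vehicle animals 2 and 4. Blvrb varied least in both groups, by 6.41% and 1.57%. Among treated animals Tfrc varied most, by 31.9%, followed by Trf at 30.6% and Fth1 at 29.99%. HPβCD animal 3 was the highest treated library for Hmox1, Fth1, Ftl1, Slc48a1, Tfrc and Trf.

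Levels of different genes were compared as RPKM, which is the CPM divided by the length of the main transcript in kilobases. In vehicle-treated infarcts the order was Fth1 (3203 ± 798, SD, n = 4), Ftl1 (1174 ± 158), Cp (166 ± 65.4), Slc48a1 (71.0 ± 7.75), Slc11a1 (51.9 ± 8.87), Hmox1 (49.6 ± 16.5), Slc40a1 (33.1 ± 10.7), Tfrc (20.3 ± 4.11), Blvrb (19.2 ± 1.23) and Trf (0.943 ± 0.197). From Slc11a1 down to Blvrb, each gene overlapped with the next over the 4 animals. In HPβCD-treated infarcts Slc11a1 (132 ± 23.2 RPKM) stood ahead of Slc48a1 (111 ± 18.4 RPKM), with overlapping ranges, and the other genes kept their places. Fth1 reached 5963 ± 1788 RPKM, Ftl1 2630 ± 648 RPKM and Cp 228 ± 13.3 RPKM. Hmox1 followed at 70.1 ± 6.99 RPKM, Slc40a1 at 54.3 ± 3.27 RPKM and Tfrc at 37.0 ± 11.8 RPKM, the last of which overlapped with Blvrb at 32.3 ± 0.505 RPKM. Trf was again last at 1.04 ± 0.318 RPKM. In both groups its value was divided by the full main transcript, of which only 463 bases lie outside Gm20425. The place of Trf may thus be too low.

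How many genes passed depended on the test and on single animals. DESeq2 called 7 of the 10 higher (Blvrb, Fth1, Ftl1, Slc40a1, Slc11a1, Slc48a1 and Tfrc), where it called 5.92% of all genes higher, and limma-voom called the same genes except Tfrc, where it called 10.9% higher and 22.1% in either direction. Before adjustment, 7 of the 10 had a p under 0.05 in edgeR, compared with 27.8% of all tested genes and 11.8% with such a p and a higher level. Leaving out single animals in edgeR ended all of the calls for animals 1 and 4 of the vehicle group and for animals 1, 2 and 3 of the HPβCD group. In these 5 fits between 7 and 8 of the 10 still had an unadjusted p under 0.05, compared with 19.4% to 28.2% of all tested genes, and between 0 and 4 genes of the whole table were called. Without vehicle animals 1 and 3 together, Blvrb and Slc11a1 were called, where 0.485% of all genes were called higher. With scaling by library totals alone all 10 remained above 0, none was called, and the adjusted p-values of Slc11a1, Blvrb and Ftl1 were 0.0528, 0.0539 and 0.0554.

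**Figure D3:**
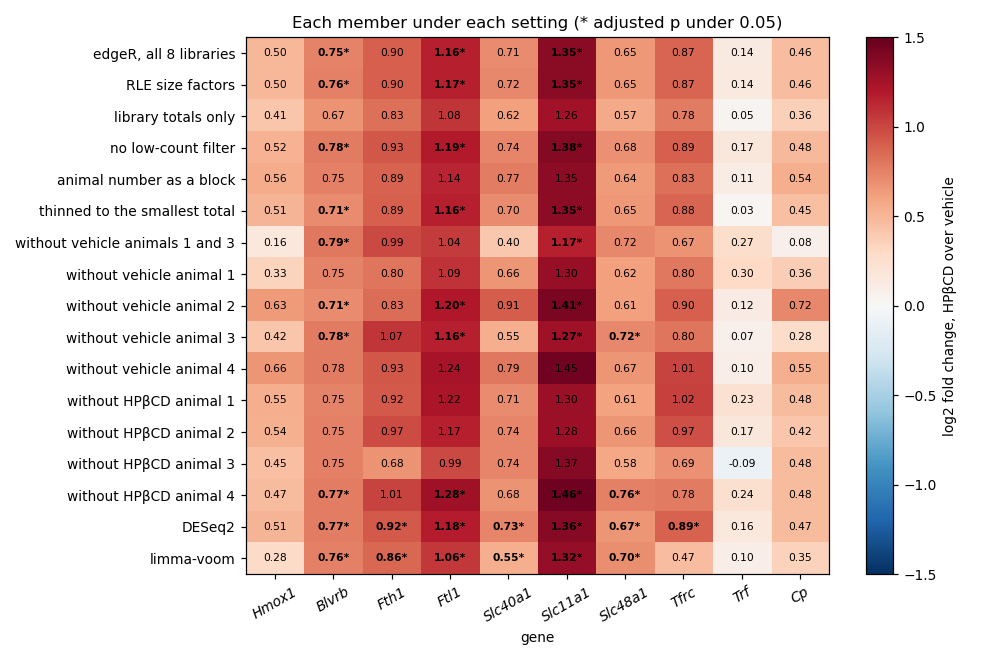
Log2 fold change of each gene (columns) under each setting of the test (rows), with colour from −1.5 (blue) to 1.5 (red) and an asterisk where the adjusted p was under 0.05. Blvrb, Ftl1 and Slc11a1 carry most asterisks, and the only value below 0 is that of Trf without HPβCD animal 3.

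Markers of several cell types moved with the groups. The 8 markers of foamy macrophages summed to 7405 to 13578 CPM in vehicle-treated animals and 16884 to 28503 CPM in HPβCD-treated animals, with HPβCD animal 3 highest, and 7 of the 8 had a log2 fold change above 0. Gpnmb, a lysosomal glycoprotein of lipid-laden macrophages, was the marker of that list that passed the test (log2 fold change 1.38, adjusted p = 0.0483). The 7 fibroblast markers summed to 2348 to 6025 CPM and 8657 to 9271 CPM, with Col1a1 and Col1a2 called higher. The 6 choroid plexus markers summed to 22.5 to 35.9 CPM and 50.1 to 58.4 CPM, but 2 of the 5 that were tested had a log2 fold change above 0, Aqp1 (1.30) and Clic6 (1.08), and Ttr, the defining marker, was at most 3.69 CPM (−0.59). The 8 plasma cell and B lymphocyte markers went the other way as a sum, from 1473 to 3050 CPM to 362 to 672 CPM. Jchain made up most of that sum in each vehicle-treated animal. It had 1344, 2184, 1998 and 858 CPM in vehicle-treated animals and 229, 41.0, 49.9 and 78.9 CPM in HPβCD-treated animals. Of these 8 markers 3 were called lower, and 1, Sdc1, had a log2 fold change above 0 (0.41).

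For the remaining lists the groups overlapped. Microglial markers summed to 876 to 1500 CPM in vehicle-treated and 1052 to 1742 CPM in HPβCD-treated animals. Border macrophages had 138 to 327 CPM and 173 to 244 CPM, and neutrophils and monocytes 88.9 to 344 CPM and 133 to 235 CPM. Oligodendrocyte markers had 1598 to 5195 CPM and 178 to 2022 CPM, astrocyte markers 2170 to 9024 CPM and 626 to 2487 CPM, and neuronal markers 18.1 to 6048 CPM and 7.84 to 84.3 CPM. Of the 8 oligodendrocyte, 7 astrocyte and 7 neuronal markers that were tested, 0 had a log2 fold change above 0, and 0 were called. The overlap of the oligodendrocyte and astrocyte sums came from HPβCD animal 3 alone. Endothelial markers had 549 to 598 CPM and 552 to 887 CPM, and proliferating cells 19.2 to 43.6 CPM and 30.1 to 82.5 CPM. Hemoglobin and other erythroid markers, of which 6 of 7 were counted, summed to 32.98, 24.1, 24.9 and 11.9 CPM in vehicle animals 1 to 4 and to 31.1 to 36.4 CPM in HPβCD-treated animals. All 5 tested erythroid markers had a log2 fold change above 0, and the overlap came from vehicle animal 1 alone. No marker was at 0 in all 8 libraries. The part of any of these cell types in the values of the heme and iron genes was not tested.

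**Figure D4:**
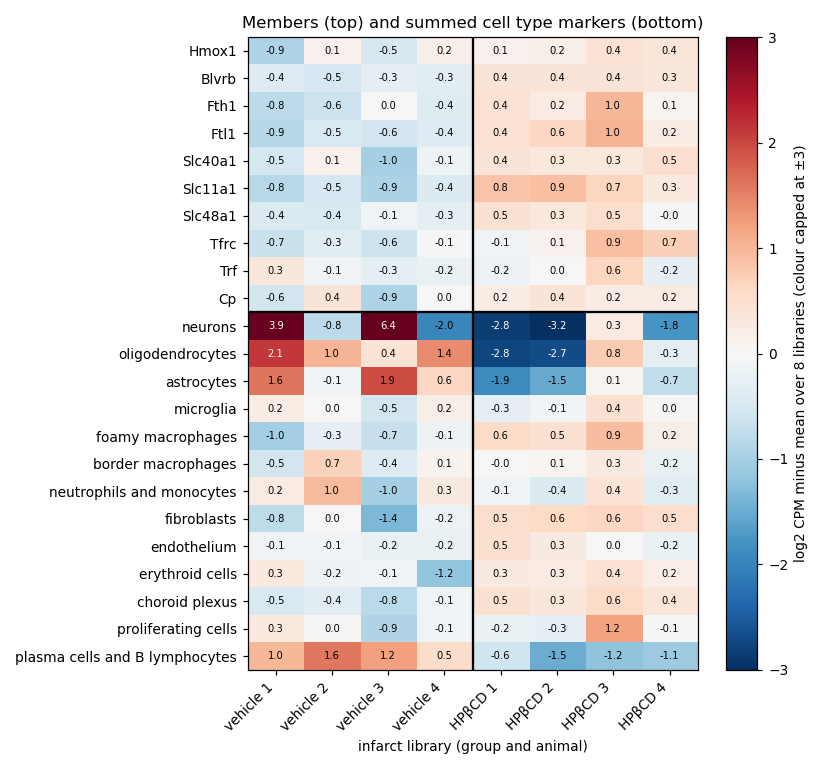
Heat map of the 10 genes (top rows) and the summed markers of 13 cell types (bottom rows) in each of the 8 libraries (columns). Cells give log2 CPM minus the mean over the libraries, with colours limited to ±3. The foamy macrophage, fibroblast and choroid plexus rows, like 6 of the genes, separate the groups with higher values in HPβCD-treated infarcts. The plasma cell and B lymphocyte row separates them the other way, and the neuron row is highest in vehicle animals 1 and 3.

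Other genes of heme and iron metabolism were examined as a list of 70, of which 61 were tested. Of these, 3 were called higher and 0 lower in edgeR, compared with 1.17% and 0.774% of all tested genes, and 17 (27.9%) had an unadjusted p under 0.05, close to the 27.8% of all tested genes. DESeq2 called 7 higher and 0 lower, where it called 5.92% of all genes higher and 11.1% lower. The calls of limma-voom were 15, all of them higher, where it called 10.9% of all genes higher and 22.1% in either direction. Log2 fold changes were above 0 for 44 genes and below 0 for 17, with a median of 0.25. In 12 genes every treated animal was higher than every vehicle-treated animal, and in 0 every treated animal was lower, compared with 8.77% and 8.03% of all tested genes. A difference between this list and the 10 genes was not tested. This list was also chosen with earlier results of these data known.

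The called genes belonged to 3 different steps. Lrp1, the receptor that takes up heme bound to hemopexin along with many other ligands, had 611, 760, 1027 and 753 CPM in vehicle-treated animals and 1782, 2052, 1867 and 1201 CPM in HPβCD-treated animals. Slc11a2, which encodes DMT1, the endosomal iron importer and relative of Slc11a1, had 48.6, 50.4, 55.7 and 66.9 CPM and 117, 95.6, 130 and 81.2 CPM. G6pdx, the NADPH-producing enzyme and a target of the NRF2 transcription factor, had 57.8, 61.1, 64.4 and 56.7 CPM and 109, 112, 143 and 79.9 CPM. The groups did not overlap for any of the 3, and HPβCD animal 4 was the lowest treated animal each time. They rose by 1.13 (SE 0.23, adjusted p = 0.0499), 0.94 (SE 0.18, adjusted p = 0.0483) and 0.88 (SE 0.17, adjusted p = 0.0483) on the log2 scale. In edgeR, 1 gene of the list was called without vehicle animal 2, 1 (Lrp1, adjusted p = 0.0443) without vehicle animals 1 and 3, and 0 after leaving out animals 1 or 4 of the vehicle group or 1, 2 or 3 of the HPβCD group in turn, where 18.0% to 26.2% of the list and 19.4% to 28.2% of all tested genes had an unadjusted p under 0.05.

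Among genes of heme uptake and transport, 7 of 8 tested were above 0. Beside Lrp1, the heme exporter Flvcr1 (102 ± 45.2 and 120 ± 28.1 CPM, log2 fold change 0.23) and the heme-binding protein Pgrmc1 (629 ± 60.9 and 662 ± 121 CPM, 0.07) did not pass the test. The hemoglobin scavenger receptor Cd163, picked out after its values were seen, pointed the other way. It had 4.47, 11.2, 6.96 and 6.02 CPM in vehicle-treated animals and 3.33, 5.39, 2.79 and 3.16 CPM in HPβCD-treated animals, a log2 fold change of −0.97 (SE 0.33, adjusted p = 0.108) with overlapping groups. The other heme breakdown enzymes Hmox2, the constitutive heme oxygenase, and Blvra, the main biliverdin reductase, had log2 fold changes of 0.08 and 0.28 without a call (25.3 ± 4.26 and 26.7 ± 3.37 CPM, and 41.3 ± 4.50 and 50.2 ± 6.63 CPM). In heme synthesis 6 of 9 were above 0 and 0 were called in edgeR, with 3 at an unadjusted p under 0.05. Alas1, the rate-limiting enzyme outside red cells, went from 103 ± 15.97 to 169 ± 35.1 CPM without overlap (log2 fold change 0.71, adjusted p = 0.0700, and 0.0111 in DESeq2). Cpox and Fech, late enzymes of the same route, had log2 fold changes of −0.19 and 0.32.

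In iron import and reduction 10 of 12 tested genes were above 0. Steap3, the endosomal ferrireductase that works with the transferrin receptor, went from 83.8 ± 31.3 to 162 ± 14.2 CPM without overlap (log2 fold change 0.95, adjusted p = 0.0738, and 0.0126 in DESeq2). Its relative Steap4 had 79.0 ± 36.7 and 85.9 ± 14.9 CPM (0.12), and Lcn2, which binds iron-carrying siderophores, had 141 ± 19.6 and 102 ± 52.1 CPM (−0.47). The largest negative value of the list was that of Slc22a17, a receptor for Lcn2 also named after its values were seen, which was high in vehicle animals 1 and 3. It had 76.3, 22.3, 171 and 27.9 CPM in vehicle-treated animals and 36.0, 29.0, 33.7 and 20.1 CPM in HPβCD-treated animals (log2 fold change −1.32, SE 0.64, adjusted p = 0.222), and without vehicle animals 1 and 3 the log2 fold change turned to 0.26. Of the other genes named here from the wider list, Flvcr1, Pgrmc1, Steap4 and Nfe2l2 turned to −0.16, −0.02, −0.28 and −0.04 without these 2 animals. Ncoa4, the receptor that delivers ferritin to autophagy, had 118 ± 28.9 and 171 ± 31.6 CPM (0.53, adjusted p = 0.143). The iron chaperones Pcbp1 and Pcbp2, which load ferritin, had log2 fold changes of 0.26 and 0.28. Heph, a ferroxidase related to Cp, measured 15.5 ± 3.76 and 15.4 ± 2.23 CPM (−0.02).

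Of 6 tested genes that sense iron or control hepcidin, 4 were above 0 and 0 were called in edgeR, with 3 at an unadjusted p under 0.05 and 1 called higher in DESeq2. Ireb2, which encodes an iron-regulatory protein that binds the hairpin, had 171 ± 41.1 and 160 ± 25.3 CPM (log2 fold change −0.09), and Fbxl5, which targets it for degradation, had 175 ± 40.0 and 157 ± 33.8 CPM (−0.16). Aco1, which encodes the other iron-regulatory protein, was named after its values were seen. It had 60.1 ± 5.59 and 78.3 ± 7.49 CPM without overlap of the groups. Neo1, a co-receptor in hepcidin control, had 294 ± 56.4 and 378 ± 56.5 CPM (0.36). Hamp and Hamp2, which encode the hormone hepcidin, had 0 reads in every library, as did Ftmt and Hephl1, and Hpx, Meltf, Hjv, Tmprss6 and Erfe were too low to be tested. Of 7 mitochondrial genes 5 were below 0, with a median of −0.17, but without vehicle animals 1 and 3 Slc25a28, Iscu and Glrx5 turned to 0.20, 0.16 and 0.25, and Slc25a37, which imports iron into mitochondria, and Nfs1, which serves the building of iron-sulfur clusters, had −0.19 and 0.04.

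Of 5 genes listed as regulators of heme and iron genes, 0 were called in edgeR or DESeq2, with 1 at an unadjusted p under 0.05 in edgeR. Mafg was called in limma-voom (adjusted p = 0.0252). Nfe2l2, which encodes NRF2, had 324 ± 105 and 392 ± 30.8 CPM (log2 fold change 0.27), the heme-sensing repressor Bach1 had 201 ± 76.2 and 280 ± 26.6 CPM (0.48), and their partner Mafg, a small MAF protein, had 48.7 ± 8.31 and 68.8 ± 15.6 CPM (0.50). Of 8 other NRF2 targets 6 were above 0 and G6pdx was called. Txnrd1, the thioredoxin reductase, went from 126 ± 23.5 to 204 ± 16.95 CPM without overlap (0.70, adjusted p = 0.0599, and 0.00450 in DESeq2). Gclm, of glutathione synthesis, had 82.7 ± 7.12 and 98.4 ± 16.8 CPM (0.25), and the cystine importer Slc7a11 had 719 ± 253 and 582 ± 194 CPM (−0.30). Errors are SD over 4 animals throughout.

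**Figure D5:**
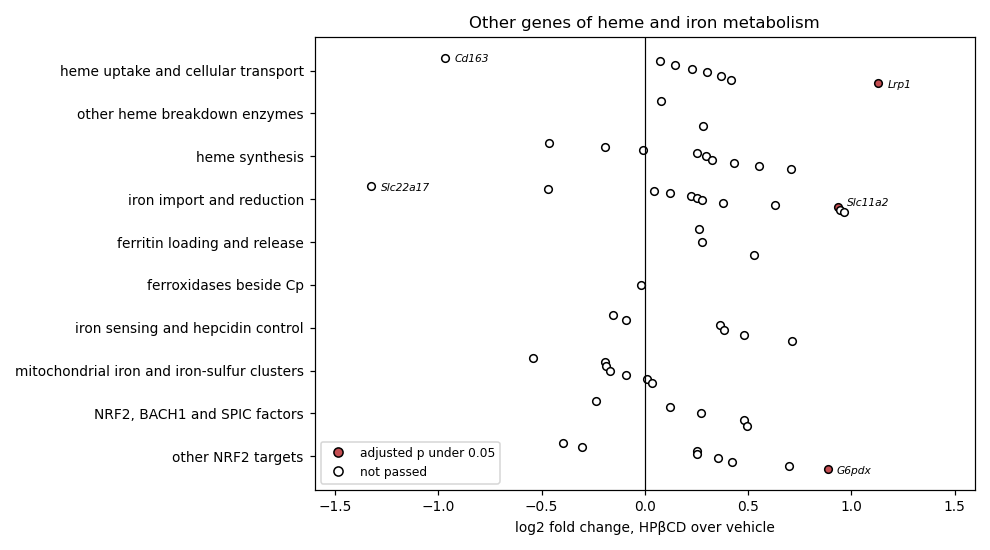
Log2 fold change, HPβCD over vehicle (horizontal axis), of the 61 tested genes of the wider heme and iron list, each point a gene, arranged by step (vertical axis). Filled points passed the test, and all 3 lie at or above 0.88. The labelled points on the left, Cd163 and Slc22a17, did not pass.

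Promoter sequences from 250 bases before to 50 bases after the start site were available in the RefSeq table (GRCm38.p6) for 6 of the 10 genes, with 10 start sites in all. On either strand, 0 of the 10 held the core of the antioxidant response element bound by NRF2 (TGACNNNGC), which 12.4% of all 32851 promoters held. None held CACGTG, the core letters of the lysosomal gene motif bound by TFEB, which 7.15% of all promoters held. A longer motif that was also searched stood in 0 of the 10 and in 0.155% of all promoters. Hmox1, Slc40a1, Slc48a1 and Trf were not in the table. With 10 start sites from 6 genes, 0 cannot be told apart from these shares of all promoters. Sequence outside the window of 250 bases before to 50 bases after the start site was not searched. Whether these genes hold the motifs elsewhere was thus not tested.

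For each of the 10 genes, the genes with the most similar profile over the 8 libraries were named. Likeness was the root mean square difference of centered log2 CPM among genes averaging 5 CPM or more, and it is a description in which shared libraries and cell makeup enter. The nearest profiles were those of Gdpd1 to Blvrb (0.06), of Cast, which encodes the calpain inhibitor, to Cp (0.07), of Wdr81 to Slc48a1 (0.08) and of Galns, a lysosomal sulfatase, to Ftl1 (0.08). Slc11a1 was closest to the transporter gene Abcc3 (0.08), Slc40a1 to the cholesterol-binding Stard5 (0.10) and Fth1 to Pld3, a lysosomal nuclease (0.10). Trf was nearest to the interferon pathway gene Stat2 (0.12), Hmox1 to Ern1, a sensor of unfolded protein (0.15), and Tfrc to the kinase Sgk1 (0.17). The genes in second place were Rarg, Ppic, Bscl2, Tmem104, Gdpd5, Tfec, Arg2, Irgm1, Rnf135 and Txn1 in the same order.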

How the data were processed

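Infarct RNA of 8 mice was measured, 1 library per animal. The authors made strand-specific libraries from polyadenylated RNA and, per the labels, used bcl2fastq 2.19, Trimmomatic 0.32, STAR 2.5.2b, HTSeq and DESeq2 with build GRCm38. The strand setting and annotation release of the counting were not given in the sources used here. The authors deposited raw counts per gene without normalization. The 5 lines of reads assigned to no gene (26.6% to 36.6% of a library) were left out of totals and tests. Groups and animal numbers came from the labels. Counts of any 2 libraries differed by a chi-square of at least 20.3 per degree of freedom, so none was a duplicate.

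Counts were tested with edgeR 4.0.16 in R 4.3.3 (filterByExpr, TMM, robust quasi-likelihood F test, Benjamini-Hochberg over 14736 genes, threshold 0.05). CPM used the library total and its TMM factor. DESeq2 1.42.0 and limma-voom (limma 3.58.1) were alternatives, with other scalings and filters, thinned counts, the animal number as a block and each animal left out. Ratios were compared by exact permutation.

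The 10 genes, the wider list and the marker lists were chosen with earlier results of these data known. Of the wider list, every called gene and the 3 most expressed per step are named, except 1 that is not reported here, and for each of the 10 genes the 2 nearest profiles. Coordinates and lengths are from GENCODE M21 (GRCm38), with the main transcript of each gene taken for RPKM and exon union lengths tried after seeing the data. No batch was labelled, so no value within batches was possible. Intervals reflect the spread between animals.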

Additional observations from a re-analysis of the deposited data

Results flagged for a closer look

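Of 56 groups of 4 values that were checked for a lone extreme sample, 2 had one, and chance alone flags about 1 in 20 groups. Cp in HPβCD animal 2 measured 9.96 on the log2 CPM scale, above the narrow range of 9.79 to 9.81 in the other 3 treated animals. The summed markers of proliferating cells in HPβCD animal 3 measured 6.37 on the log2 CPM scale, compared with 4.91 to 5.11 in the other 3 treated animals, and this library was also the highest treated library for Hmox1, Fth1, Ftl1, Slc48a1, Tfrc and Trf.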

How the results depend on the processing

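Of the 10 heme and iron genes, 3 were called with all 8 libraries, and 3 again with RLE size factors, without a low-count filter and with thinned counts. DESeq2 called 7, limma-voom 6, scaling by library totals 0 (7 with an unadjusted p under 0.05) and the block 0 (8 with an unadjusted p under 0.05). Leaving out single animals gave 0 to 4. The wider list had 3 calls with all libraries, 7 in DESeq2, 15 in limma-voom, 0 with library totals and with the block (18.0% and 21.3% with an unadjusted p under 0.05, where all tested genes had 27.3% and 23.6%), 1 without vehicle animals 1 and 3, and 0 to 3 with single animals left out. Over the whole table edgeR called 287 genes, 11 with library totals and 9 with the block, and between 0 and 629 with single animals left out, so these counts move with the number of calls in all. Nothing in the labels says that the animal numbers mark pairs. Deviations of same-numbered animals correlated at −0.26, 0.24, 0.33 and 0.10 for numbers 1 to 4. Differently numbered animals were not compared in this way, so a batch shared by number was not tested. With the block the 2 ratios had exact p-values of 0.125 and 0.75, the smallest possible being 0.125. The difference in mean log2 heavy to light ferritin ratio (HPβCD minus vehicle) ranged from −0.36 to −0.11 with single animals left out. That of the ferroportin to transferrin receptor ratio ranged from −0.24 to 0.12, with positive values without vehicle animal 2 (0.08) and HPβCD animal 3 (0.12). Trf had a log2 fold change of −0.092 to 0.30 with single animals left out, the negative value without HPβCD animal 3. The other 9 genes stayed above 0 in all settings run. The cause of these moves was not tested. The 95% intervals of Hmox1, Cp and Trf included 0.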
